A study of Homo sapiens with 30 samples.

Results

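The PNMA genes examined here are PNMA1, PNMA2, PNMA3, PNMA5, PNMA6A and PNMA6E, 6 of the 60554 gene identifiers in the files. They were matched by their GENCODE 29 symbols. They had been proposed with their decitabine response in these libraries already known, so their response is described below without a test. RNA was measured in 5 human cell lines derived from T-cell acute lymphoblastic leukaemia (T-ALL), an aggressive cancer of immature T cells: Loucy, MOLT-16, PEER, PER-117 and TALL-1. Cultures of each line received 1 µM decitabine or the solvent DMSO alone for 48 h, with 3 libraries per line and treatment and 30 in all. Each line stands for a single leukaemia, and 1 dose and 1 time were used.

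The PNMA genes descend from the gag gene of an ancient retrotransposon, and several of their proteins can still assemble into capsid-like particles. They are named for antibodies against PNMA1 and PNMA2 (the antigens Ma1 and Ma2) in patients with paraneoplastic neurological disease, and are known mainly from brain and testis. Decitabine is a cytidine analogue that is built into DNA and traps DNA methyltransferases, so that methylation is lost as cells divide. DNA methylation itself was not analysed here, so the proposed division into silenced and constitutively expressed relatives is described only by RNA levels.

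PNMA5, PNMA3, PNMA6A and PNMA6E lie together at the end of the long arm of the X chromosome, and PNMA1 and PNMA2 are autosomal. On GRCh38 the annotation places PNMA5 at chrX:152988824-152994127 (minus strand), PNMA3 at chrX:153056409-153060467 (plus strand), PNMA6A at chrX:153072482-153075018 (plus strand) and PNMA6E at chrX:153395640-153401420 (minus strand). PNMA1 lies at chr14:73711783-73714372 (minus strand). All 6 are annotated as protein-coding.

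Promoter sequence was not part of how the genes were chosen. RefSeq windows on GRCh38.p14, each running from 250 bases before to 50 bases after a start, were matched for 4 of the 6 genes. The 250 bases before the start are given for the 4 X-linked genes, whose decitabine values are the subject below, and for MOAP1, a relative from the same family with a steady level in every line. Each is written 5′ to 3′ on the gene's strand, with every CpG, the dinucleotide that DNA methyltransferases act on, in capitals.
PNMA5 (chrX:152994117-152994366, minus strand): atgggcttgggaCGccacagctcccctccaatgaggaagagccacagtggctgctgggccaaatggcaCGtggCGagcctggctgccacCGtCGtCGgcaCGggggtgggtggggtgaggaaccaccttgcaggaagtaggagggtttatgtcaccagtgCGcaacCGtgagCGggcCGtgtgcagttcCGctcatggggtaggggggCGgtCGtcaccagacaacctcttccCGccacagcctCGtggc
PNMA6E (chrX:153401351-153401600, minus strand): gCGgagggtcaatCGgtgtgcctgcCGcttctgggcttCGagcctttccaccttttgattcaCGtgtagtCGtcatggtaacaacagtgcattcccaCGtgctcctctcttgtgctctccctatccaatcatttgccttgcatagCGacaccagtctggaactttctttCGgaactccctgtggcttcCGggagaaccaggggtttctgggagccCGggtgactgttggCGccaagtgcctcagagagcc
PNMA3 (chrX:153056220-153056469, plus strand): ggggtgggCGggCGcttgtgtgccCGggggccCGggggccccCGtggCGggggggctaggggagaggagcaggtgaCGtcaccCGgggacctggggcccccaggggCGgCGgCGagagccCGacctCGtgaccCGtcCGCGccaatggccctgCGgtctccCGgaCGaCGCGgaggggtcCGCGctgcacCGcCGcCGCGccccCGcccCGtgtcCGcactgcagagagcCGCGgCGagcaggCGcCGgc
PNMA6A (chrX:153072204-153072453, plus strand): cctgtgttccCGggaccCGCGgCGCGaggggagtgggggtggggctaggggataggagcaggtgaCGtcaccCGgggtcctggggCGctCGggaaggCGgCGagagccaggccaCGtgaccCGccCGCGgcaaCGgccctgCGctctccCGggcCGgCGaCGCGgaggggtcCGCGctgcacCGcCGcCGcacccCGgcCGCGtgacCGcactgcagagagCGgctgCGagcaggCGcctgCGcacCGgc
MOAP1 (chr14:93184898-93185147, minus strand): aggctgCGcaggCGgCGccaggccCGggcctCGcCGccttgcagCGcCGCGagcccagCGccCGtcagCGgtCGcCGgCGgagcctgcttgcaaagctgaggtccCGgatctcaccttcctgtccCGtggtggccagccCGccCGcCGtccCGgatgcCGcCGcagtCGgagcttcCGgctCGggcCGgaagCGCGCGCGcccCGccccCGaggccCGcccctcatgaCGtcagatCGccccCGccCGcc

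The 4 X-linked genes differed in CpG content. The 300-base windows of PNMA3 and PNMA6A held 41 and 43 CpGs, at the 93.3rd and 95th percentile of 35114 windows in the table, whose median was 14. The first PNMA5 window held 23 CpGs (64.2nd percentile), and its 2 other windows, at internal starts, held 4 each. The 2 PNMA6E windows held 16 and 20 CpGs. The MOAP1 window held 43, as many as PNMA6A. The GC content was 79.0% for PNMA3, 77.0% for PNMA6A, 66.3% for the first PNMA5 window and 57.0% for the first PNMA6E window, against a median of 58.7%.

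Short motifs were searched after the sequences had been seen, so the matches are a description. The E-box CACGTG, which reads the same on both strands, occurred in at least 1 window of each of the 4 X-linked genes and in 7.26% of all windows, and not in the MOAP1 window. The cyclic AMP response element TGACGTCA, also its own reverse complement, occurred in the PNMA3, PNMA6A, MOAP1 and PNMA8C windows and in 1.85% of all windows.

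**Figure D1:**
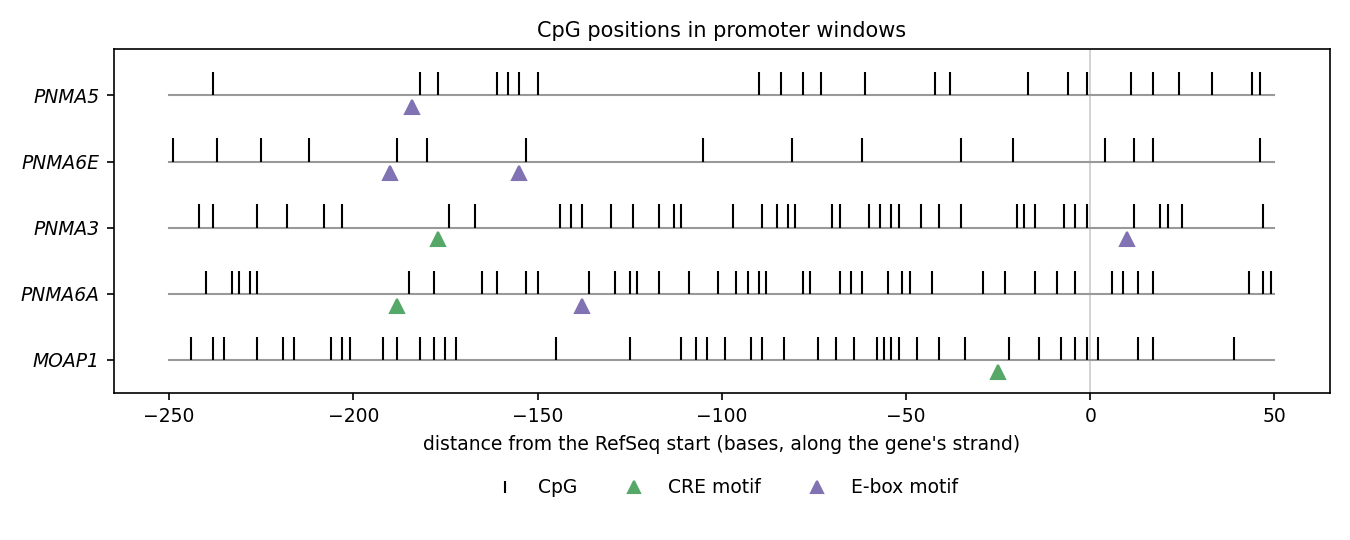
Positions of CpGs (black ticks) and of the 2 motifs (triangles) in 1 RefSeq promoter window each of PNMA5, PNMA6E, PNMA3, PNMA6A and MOAP1, by distance in bases from the start along the gene's strand. PNMA3, PNMA6A and MOAP1 have 41, 43 and 43 ticks over the window, and PNMA5 and PNMA6E have 23 and 16.

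Reads were counted once per sequenced 3′ end on the gene's strand, and totals per library ran from 2.20 M to 15.4 M. Levels are counts per 1 M of effective library size (CPM). The effective size is the total over genes that passed the filter on low counts, scaled between libraries by the TMM method. It ran from 2.04 M to 17.1 M. Ratios of reads, fold bounds and their intervals are scaled for the effective sizes of the groups compared, so they differ from the plain quotient of the reads. A mean ± SD is taken over the n = 3 libraries of a group. Because the kit reads only the transcript end, a CPM is not scaled to transcript length. Nothing in the labels tells whether libraries of the same group came from separate cultures, so the p-values reflect the spread among these libraries alone, and that spread may be technical. All 10 T-lineage markers were detected in each line, with summed levels from 666 CPM in a PER-117 library to 8694 CPM in a MOLT-16 library. With decitabine 6 of these 10 were called lower in TALL-1, where the summed level was 6068 to 6560 CPM with DMSO and 3794 to 4375 CPM with decitabine. In PER-117 4 were called lower, and in Loucy 1 (CD3G) was called lower and 1 (CD2) higher. Of 3 myeloid markers MPO was called higher with decitabine in PEER and Loucy. The summed myeloid level was at most 0.382 CPM with DMSO and 8.26 CPM with decitabine in PEER. In Loucy it was at most 6.54 and 25.9 CPM. Of 5 neuronal markers SYT1 was called higher in Loucy, and SNAP25 had 0 reads in every treated library. The summed neuronal level in Loucy was 0 CPM with DMSO and 1.33 to 1.76 CPM with decitabine. In TALL-1, where none was called, it was at most 12 CPM with DMSO and 11.4 CPM with decitabine. Of 2 epithelial and stromal markers COL1A1 was called higher in TALL-1 and Loucy. Their summed level was at most 0.537 CPM with DMSO and 4.79 CPM with decitabine in TALL-1, and at most 0.0683 and 1.42 CPM in Loucy. In PEER, where none was called, it was at most 2.99 and 6.22 CPM. The 2 erythroid markers did not pass the filter on low counts and reached at most 1.94 CPM together. The part of these marker lists in the PNMA values was not tested. In bulk RNA of this kind, more cells with a transcript and more transcript per cell cannot be told apart.

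Of the 30 libraries, 3 DMSO libraries held the largest shares of transcripts of another line and touch the values below. To see this, transcripts were taken that reached 10 CPM in one line and stayed at a median under 0.5 CPM in another. The third TALL-1 DMSO library contained all 78 such PEER transcripts, at a median of 15.7% of their PEER level (interquartile range 12.5% to 21.2%). The third MOLT-16 DMSO library contained all 71 PEER transcripts at 21.8% (17.7% to 26.9%). The second PEER DMSO library contained 38 of 39 MOLT-16 transcripts at 6.33% and 21 of 21 TALL-1 transcripts at 5.29%. Treated libraries showed smaller shares. The second treated TALL-1 library contained 65 of 70 MOLT-16 transcripts at 2.19% and 52 of 78 PEER transcripts at 0.904%. The treated Loucy libraries contained 61 to 65 of 102 PEER transcripts at 0.265% to 0.331%, against 26 to 43 with DMSO. The part of this in the low treated PNMA values of TALL-1 and Loucy was not tested. These 3 are called mixed below, and each PNMA value that rests on them is also given without them.

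PNMA5 had the most reads of the 6 genes over all treated libraries together. It is a little-studied member whose RNA is best known from the primate brain. In PEER the DMSO libraries 1, 2 and 3 held 0, 4.58 and 2.48 CPM (0, 24 and 12 reads), and the decitabine libraries held 475, 377 and 226 CPM (5233, 1456 and 710 reads). The treated libraries all lay far above the untreated ones, and the mixed DMSO library was the highest of the untreated. The mean was 2.35 ± 2.29 CPM with DMSO and 359 ± 126 CPM with decitabine, a fitted log2 difference of 7.33 (approximate SE 0.96). Without the mixed library the ratio of summed reads, scaled for library size, was 383 (95% counting interval 219 to 741), against 187 (135 to 268) with it.

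PER-117 showed the widest contrast in PNMA5. Its DMSO libraries held 0.335, 0 and 0.216 CPM (3, 0 and 2 reads), and its decitabine libraries 226, 156 and 313 CPM (3059, 1643 and 3396 reads). PNMA5 was therefore at the edge of detection in all untreated PER-117 libraries and among well-counted transcripts in all treated ones. The log2 difference was 10.21 (SE 1.21).

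In MOLT-16 the PNMA5 level was 0.255, 0.893 and 5.76 CPM with DMSO (1, 3 and 27 reads) and 224, 56.3 and 135 CPM with decitabine (1144, 115 and 342 reads). The highest untreated library was again the mixed one. The log2 difference was 5.79 (SE 0.96), and 7.94 in the fit without the mixed libraries. In Loucy, an immature T-ALL line, PNMA5 stayed low in both conditions, with 0.263, 0.350 and 0 CPM with DMSO (4, 6 and 0 reads) and 3.58, 3.56 and 5.88 CPM with decitabine (53, 59 and 73 reads). The Loucy groups did not overlap, and the log2 difference was 4.24 (SE 1.30).

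TALL-1 was the line in which 1 library set the outcome for PNMA5. Its DMSO libraries held 1.29, 0.738 and 57.7 CPM (6, 3 and 322 reads), and its decitabine libraries 20.7, 6.44 and 15.3 CPM (90, 43 and 40 reads). The mixed library 3 lay above every treated library, and the other DMSO libraries lay below them. With all libraries the log2 difference was -0.61 (SE 0.79). Without the mixed library the mean was 1.01 CPM over 2 DMSO libraries and 14.1 ± 7.20 CPM with decitabine, a ratio of 12.3 (6.33 to 27.3), and the fitted difference was 3.68.

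The PNMA5 level of that TALL-1 DMSO library was set beside the PEER libraries. Its 57.7 CPM was 16% of the PEER mean with decitabine, close to the 15.7% at which the PEER-restricted transcripts stood there, and 2450% of the PEER mean with DMSO. PNMA6E in the same library, at 1.79 CPM (10 reads), was 14.6% of the PEER mean with decitabine. Of 37 transcripts seen in PEER only with decitabine (at least 3 CPM there, under 0.5 CPM in PEER with DMSO and in TALL-1), 33 were detected in this library at a median of 10.7%, against 10 and 5 in the other TALL-1 DMSO libraries. In the mixed MOLT-16 DMSO library PNMA5 reached 1.60% of the PEER mean with decitabine and 245% of that with DMSO, and 16 of 25 decitabine-only PEER transcripts were detected, against 4 and 5 in the other 2. Where these reads come from was not tested.

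Across the lines the order of the PNMA5 mean with decitabine was PEER, then PER-117 (232 ± 79.0 CPM), MOLT-16 (138 ± 84 CPM), TALL-1 and Loucy (4.34 ± 1.33 CPM). PEER and PER-117 overlapped, as did PER-117 and MOLT-16. MOLT-16 did not overlap TALL-1, and the lowest TALL-1 library (6.44 CPM) lay just above the highest Loucy library (5.88 CPM). With DMSO, the 12 libraries that were not mixed all lay at or below 2.48 CPM. The TALL-1 ones among them (1.29 and 0.738 CPM, 6 and 3 reads) lay above all of Loucy (at most 0.350 CPM) and PER-117 (at most 0.335 CPM).

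**Figure D2:**
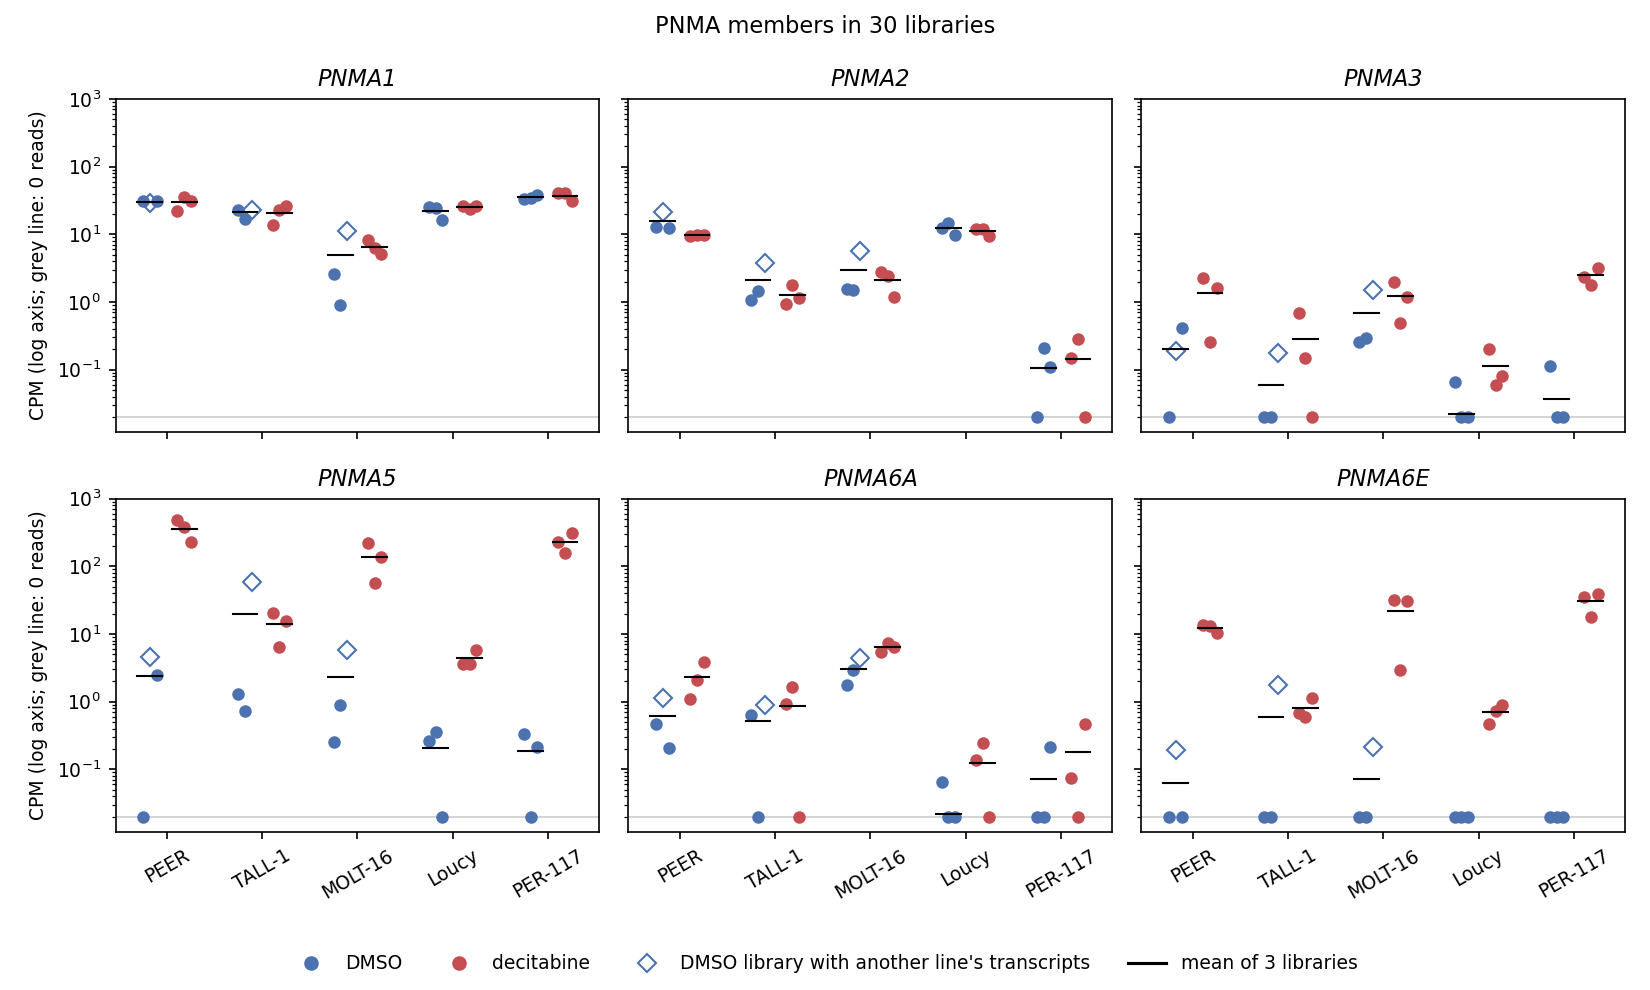
CPM on a log axis for each of the 6 genes in every library, by line, with DMSO in blue, decitabine in red and the mean of 3 libraries as a black bar. Libraries with 0 reads sit on the grey line, and open diamonds are the 3 mixed DMSO libraries. PNMA5 and PNMA6E separate by treatment in PEER, MOLT-16, Loucy and PER-117, and in TALL-1 the open diamond lies above the treated libraries.

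PNMA6E followed PNMA5 across the libraries at lower read counts. It is one of the PNMA6 genes clustered on the X chromosome. In PER-117 it had 0 reads in all 3 DMSO libraries and 34.8, 17.7 and 38.7 CPM with decitabine (470, 187 and 419 reads). This is at least 286-fold higher, when the DMSO group is set to a floor of 3 reads over its 3 libraries. In PEER the DMSO libraries 1, 2 and 3 held 0, 1 and 0 reads, the single read lying in the mixed library, and the treated libraries held 13.4, 13.2 and 10.2 CPM (148, 51 and 32 reads). The PEER ratio was 211, with a counting interval from 37.4 to 8353, and at least 47.8 without the mixed library.

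In MOLT-16 the DMSO libraries held 0, 0 and 1 PNMA6E reads, again with the 1 read in the mixed library. The treated libraries held 32.1, 2.94 and 31.2 CPM (164, 6 and 79 reads), so the second treated library stood about a factor of 10 below the others, and the ratio was 308 (54.7 to 12200), or at least 62.4 without the mixed library. That library was also the lowest of the 3 for PNMA5 (56.3 CPM), and with 2.20 M reads it was the smallest of the series. In Loucy PNMA6E rose from 0 reads in all DMSO libraries to 7, 12 and 11 reads (0.473, 0.723 and 0.886 CPM), at least 10.7-fold. In TALL-1 it had 0, 0 and 10 reads with DMSO and 3, 4 and 3 reads with decitabine. Without the mixed library this is 0 against 10 reads, at least 2.13-fold higher with the floor of 3 reads and scaling for library size.

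The order of the lines with decitabine was not that of PNMA5. PNMA6E averaged 30.4 ± 11.1 CPM in PER-117, 22.1 ± 16.6 CPM in MOLT-16, 12.3 ± 1.83 CPM in PEER, 0.812 ± 0.294 CPM in TALL-1 and 0.694 ± 0.208 CPM in Loucy. PER-117 and MOLT-16 overlapped, MOLT-16 and PEER overlapped through the low MOLT-16 library, and TALL-1 overlapped Loucy. PEER lay below PER-117 in every library, whereas for PNMA5 those lines overlapped.

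This difference was also seen in the share of PNMA6E among the reads of both genes within a library, which does not depend on library size. In the treated PEER libraries the share was 2.75%, 3.38% and 4.31%, and 3.03% over the 3 together (exact 95% interval 2.66% to 3.44%). In the treated PER-117 libraries it was 13.3%, 10.2% and 10.98%, and 11.7% together (11.1% to 12.4%). Every treated PER-117 library thus lay above every treated PEER library. In MOLT-16 the share was 12.5%, 4.96% and 18.8%, and in Loucy 11.7%, 16.9% and 13.1%. TALL-1 gave 3.23%, 8.51% and 6.98% on 43 to 93 reads, with an interval of 2.65% to 9.82% over all 3. The mixed TALL-1 DMSO library had a share of 3.01% (1.45% to 5.47%), which lay within the range of the treated PEER libraries and below the 3 treated TALL-1 ones, although its interval overlapped theirs.

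**Figure D3:**
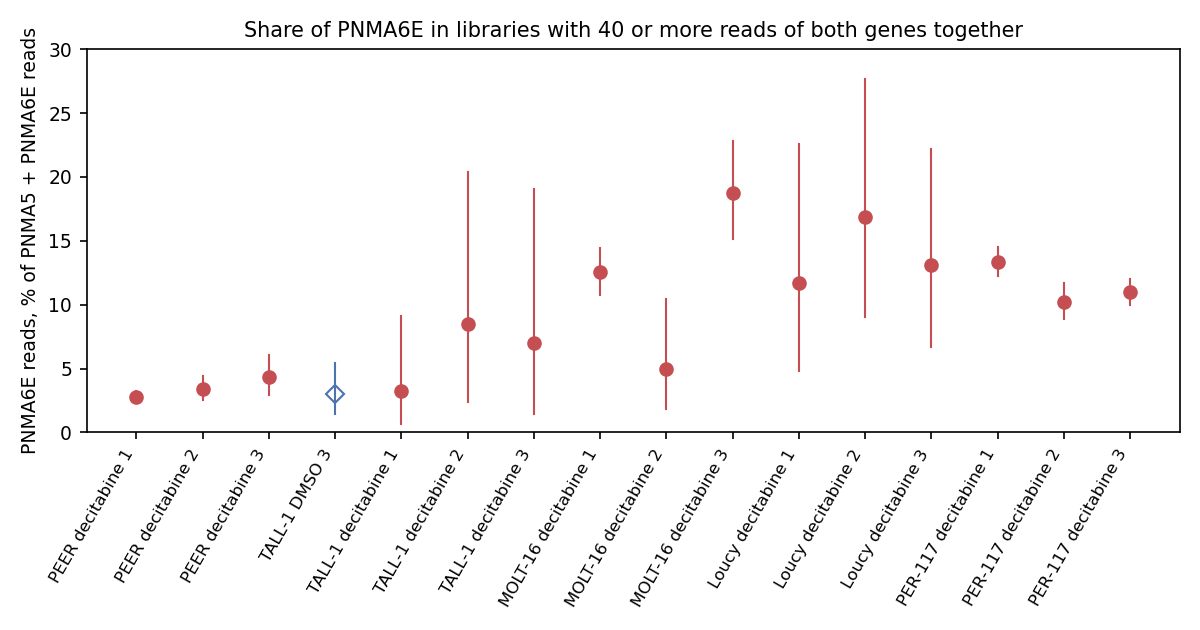
PNMA6E reads as a percent of PNMA5 and PNMA6E reads together, with exact 95% counting intervals, in the 16 libraries with at least 40 such reads (red, decitabine; open blue diamond, the mixed TALL-1 DMSO library). The PEER libraries lie between 2.75% and 4.31% and the PER-117 libraries between 10.2% and 13.3%.

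PNMA3, a further X-linked gene of the family that has been described as a neuronal antigen, was low everywhere. In PER-117 it had 1, 0 and 0 reads with DMSO and 32, 19 and 35 reads with decitabine (2.37, 1.80 and 3.23 CPM), a ratio of 68.5 (11.97 to 2736). The treated PER-117 libraries did not overlap the untreated ones. In PEER it had 0, 1 and 2 reads with DMSO and 25, 1 and 5 with decitabine (2.27, 0.259 and 1.59 CPM), a ratio of 9.42 (2.94 to 48.2), and of 9.62 (2.45 to 82.99) without the mixed library. Here the second treated library lay within the untreated range.

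In the other lines PNMA3 counts were small, and with all libraries the groups overlapped. MOLT-16 had 1, 1 and 7 reads with DMSO, the 7 in the mixed library, and 10, 1 and 3 with decitabine, a ratio of 1.92 (0.775 to 5.04). Without the mixed library this ratio was 5.26 (1.21 to 47.7), and the treated libraries lay above the remaining untreated ones, which held 1 read each. TALL-1 had 1 read with DMSO, in the mixed library, and 4 with decitabine, and Loucy had 1 and 5. At this depth no difference was detectable in TALL-1 or Loucy.

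PNMA6A, the neighbour of PNMA3 with a promoter window of like CpG content, was detected most in MOLT-16. There it had 1.79, 2.98 and 4.48 CPM with DMSO (7, 10 and 21 reads) and 5.49, 7.34 and 6.32 CPM with decitabine (28, 15 and 16 reads). The groups did not overlap, and the log2 difference was 1.00 (SE 0.59). The ratio of reads was 1.92 (1.26 to 2.97), and 2.61 (1.499 to 4.77) without the mixed library, the highest of the untreated. In PEER it had 3, 6 and 1 reads with DMSO and 12, 8 and 12 with decitabine, from 0.608 ± 0.484 to 2.33 ± 1.38 CPM, with overlapping groups and a ratio of 2.92 (1.40 to 6.65). Without the mixed library, which held 6 of those 10 DMSO reads, the groups did not overlap and the ratio was 4.97 (1.76 to 19.3). TALL-1 had 8 reads with DMSO and 15 with decitabine, Loucy 1 and 6, and PER-117 2 and 6, and their counting intervals all included a ratio of 1, as did that of TALL-1 without the mixed library (0.904 to 17.2).

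PER-117 thus set PNMA3 and PNMA6A apart. With decitabine PNMA3 had 86 reads over its 3 libraries and PNMA6A had 6, although the genes are neighbours and lie on the same strand. In MOLT-16 the numbers were 14 and 59. No test of this contrast was made, since both genes had been chosen on these values.

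PNMA1, whose protein is the onconeural antigen Ma1, was present in every library. In PEER it stood at 30.2 ± 1.21 CPM with DMSO and 29.7 ± 6.83 with decitabine, in TALL-1 at 21.1 ± 3.55 and 21.0 ± 6.50, in Loucy at 21.8 ± 4.88 and 25.2 ± 1.60, and in PER-117 at 35.4 ± 2.00 and 37.4 ± 5.36. The groups overlapped in each of these lines, and the fitted log2 differences lay between -0.05 and 0.21. The SE of these differences was about 0.3, so changes of that size, and also somewhat larger ones, could not be told from the spread. Without the mixed libraries the ratio of reads was 0.865 (0.752 to 0.996) in PEER and 1.02 (0.846 to 1.24) in TALL-1.

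MOLT-16 differed, with a PNMA1 level below that of all the other lines. Its DMSO libraries held 2.55, 0.893 and 11.3 CPM (10, 3 and 53 reads) and its decitabine libraries 8.23, 6.36 and 5.13 CPM (42, 13 and 13 reads). The mixed library was the highest of the 6, and the other DMSO libraries were the lowest. With all libraries the log2 difference was 0.37 (SE 0.45). Without the mixed library 13 untreated reads stood against 68 treated ones. Scaled for library size this is a ratio of 3.93 (2.15 to 7.76), and the fitted difference was 1.91. The untreated MOLT-16 libraries also differed widely among themselves in DNMT1, from 95.6 to 521 CPM, and the part of this in the PNMA1 value was not tested.

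PNMA2, the antigen Ma2, lies at chr8:26504686-26514092 (minus strand) and varied mostly by line. PEER held 12.9, 21.8 and 12.6 CPM with DMSO (82, 114 and 61 reads) and 9.44, 9.85 and 9.85 CPM with decitabine (104, 38 and 31 reads). The treated PEER libraries all lay below the untreated ones, by a log2 difference of -0.70 (SE 0.34), and without the mixed library by a ratio of 0.751 (0.598 to 0.944). Loucy held 12.3 ± 2.33 and 11.3 ± 1.52 CPM, with overlapping groups. TALL-1 and MOLT-16 stood at 2.10 ± 1.45 and 2.93 ± 2.45 CPM with DMSO and 1.29 ± 0.455 and 2.13 ± 0.828 with decitabine. In both of these the mixed DMSO library was the highest, at 3.76 and 5.76 CPM. Without it the ratio was 1.10 (0.499 to 2.57) in TALL-1 and 1.503 (0.698 to 3.43) in MOLT-16, where the fitted log2 difference turned from -0.47 to 0.53.

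In PER-117 PNMA2 was near the limit of detection, with 0, 2 and 1 reads with DMSO and 2, 3 and 0 with decitabine. This is the line with the widest PNMA5 and PNMA6E contrasts. The ratio of 1.33 had a counting interval from 0.258 to 8.55, so a change of several-fold was not detectable at this depth.

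**Figure D4:**
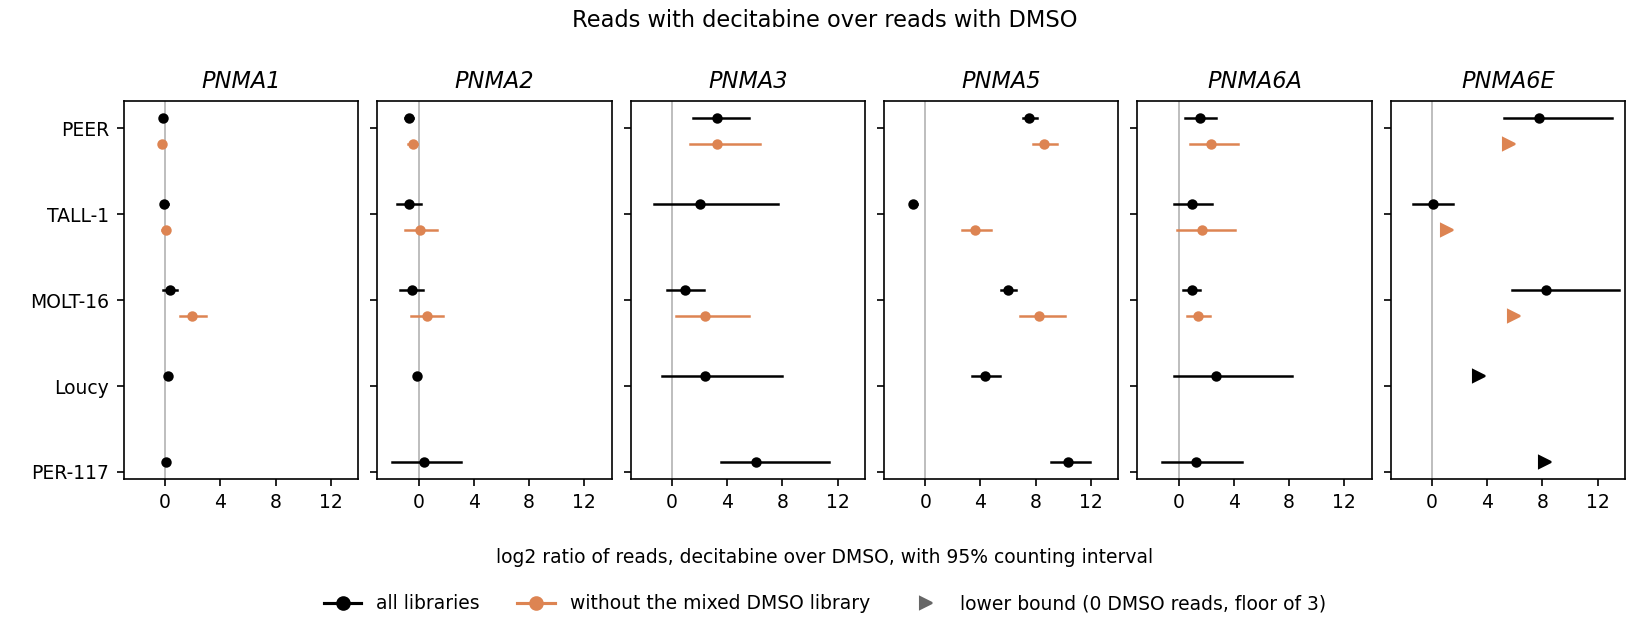
Ratio of summed reads scaled for library size, decitabine over DMSO, on a log2 axis with 95% counting intervals, by gene and line. Black marks all libraries and orange leaves out the mixed DMSO library. Triangles are lower bounds where DMSO had 0 reads. PNMA2 in PEER lies below 0 and PNMA1 in MOLT-16 without the mixed library lies above it, and PNMA5 in TALL-1 moves from below 0 to above it when that library is left out.

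All 30 libraries were fitted together, and a gene was called when its difference passed an adjusted p of 0.05 (quasi-likelihood test in edgeR, adjusted by Benjamini-Hochberg over 15081 genes). All 6 PNMA genes passed the low-count filter, PNMA3, PNMA5 and PNMA6E largely through their treated libraries. The number of the 6 called higher with decitabine was 3 in PEER (PNMA3, PNMA5 and PNMA6E), where 3.54% of all genes tested were called higher. It was 0 in TALL-1 (6.74% of all genes), 2 in MOLT-16 (PNMA5 and PNMA6E, 2.19% of all genes), 2 in Loucy (the same genes, 10.6%) and 3 in PER-117 (the same genes as in PEER, 8.67%). None was called lower in any line. These counts are a description, since the genes had been chosen with this contrast known.

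Without the 3 mixed libraries the counts were 2 in PEER, where PNMA3 was lost, 1 in TALL-1 (PNMA5), 3 in MOLT-16 (PNMA1 joined the list), 2 in Loucy and 3 in PER-117. Of the 15741 genes tested in that fit, 740 were called higher in PEER, 1174 in TALL-1, 1539 in MOLT-16, 2282 in Loucy and 1877 in PER-117. With all libraries 331 of 15081 were called higher in MOLT-16, so PNMA1 joined as calls rose among all genes. The Loucy calls rest on few reads. PNMA5 lost its call there without decitabine library 3 or any 1 of the DMSO libraries, and PNMA6E lost its call without DMSO library 2. In a fit of Loucy alone PNMA6E fell below the filter and was not tested. The PEER call of PNMA3 was lost without decitabine library 1 or 3 or any 1 of the DMSO libraries, with the replicate block and with DESeq2. In a fit of PEER alone PNMA3 fell below the filter and was not tested. The calls of PNMA3, PNMA5 and PNMA6E in PER-117, and of PNMA5 and PNMA6E in PEER and MOLT-16, were made in every alternative fit.

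The median log2 difference of the 6 genes was 2.35 in PEER, 0.04 in TALL-1, 0.95 in MOLT-16, 1.92 in Loucy and 3.34 in PER-117. Over all genes tested it lay between -0.02 and 0.05. The treated libraries lay above all untreated ones for 2 of the 6 in PEER, 0 in TALL-1, 3 in MOLT-16, 2 in Loucy and 3 in PER-117. Over all genes tested such a separation was seen for 12.5%, 15.5%, 9.18%, 23.4% and 21.6%, in the same order of lines. Without the mixed libraries PNMA5 and PNMA6E in TALL-1, PNMA1 and PNMA3 in MOLT-16 and PNMA6A in PEER also separated. Fewer untreated libraries make a separation easier, and the share over all genes was not taken in that setting.

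The 6 genes fell apart in how their levels ran together over the 30 libraries, which share lines and treatments. The correlation of log2 CPM was 0.94 between PNMA5 and PNMA6E, 0.81 between PNMA3 and PNMA6E and 0.80 between PNMA3 and PNMA5. PNMA6A stood between 0.36 and 0.46 with these 3. PNMA1 and PNMA2 lay between -0.21 and 0.08 with PNMA3, PNMA5 and PNMA6E, and PNMA1 with PNMA6A at -0.59.

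Among 12365 protein-coding genes, the profiles most like PNMA5 were those of TUBA3D (0.93), a testis tubulin, CTAG2 (0.89), a cancer-testis antigen, and MAEL (0.88), a germ-cell factor that helps to silence transposons. PNMA6E was closest to CTAG2 (0.96), TUBA3D (0.95) and DAZL (0.92), an RNA-binding protein of germ cells. PNMA3 was closest to DAZL (0.82), CTAG2 (0.79) and CDC42BPB (0.79), a kinase that acts on the cytoskeleton. The nearest profiles of PNMA6A were CPEB1 (0.92), SEL1L3 (0.89) and ANXA5 (0.89), those of PNMA1 were VPS37B (0.94), FUZ (0.94) and CHST14 (0.93), and those of PNMA2 were BEX3 (0.96), H2AFY2 (0.96) and KCNMB4 (0.95). These are Pearson correlations over 30 libraries, the mixed ones included, given as descriptions.

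Of 9 other genes of the PNMA family in the files, 3 passed the filter. CCDC8, a family member best known as a cofactor of p53 and as a gene of the growth disorder 3M syndrome, was the only one of the 3 called. It had at most 2 reads in any DMSO library, so it passed the filter through treated libraries, which made a call likely. In PER-117 it had 0 reads with DMSO and 29, 28 and 39 reads with decitabine, at least 25.5-fold higher, with a fitted log2 difference of 7.47 (SE 0.96, edgeR adjusted p = 1.75e-05). In PEER it had 0 reads with DMSO and 13, 6 and 1 with decitabine (log2 6.12, edgeR adjusted p = 0.0128), and in Loucy 0, 1 and 0 against 2, 7 and 4 (log2 3.07, edgeR adjusted p = 0.0339). The Loucy call was lost with DESeq2, with the replicate block and without any 1 of decitabine libraries 2 and 3 or DMSO libraries 1 and 3, and the PEER call without decitabine library 1 or DMSO library 1. In TALL-1 its 2 reads lay in the mixed DMSO library, and in MOLT-16 it had 1 read in all. A test of a difference in the CCDC8 response between the 5 lines gave an edgeR adjusted p of 0.0596, and of 0.607 without the mixed libraries.

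MOAP1, a BAX-binding family member whose promoter sequence is given above, stood between 21.9 and 30.6 CPM in the means with DMSO and between 19.4 and 39.1 CPM with decitabine. It was not called in any line, and its log2 differences ran from -0.17 to 0.42. ZCCHC18, a family member with a zinc knuckle, was present mostly in Loucy, at 3.67 ± 0.293 CPM with DMSO and 3.49 ± 0.873 with decitabine, and was not called. Among the 6 below the filter, PNMA8C had 0 reads with DMSO and 14 with decitabine in PEER. PNMA6F had 1 and 14 there, 12 of them in decitabine library 1. PNMA8A went the other way in MOLT-16, with 14 reads with DMSO, all in the mixed library, and 1 with decitabine. PNMA6B, a pseudogene, had 0 reads.

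Of 14 other gag-derived genes, 7 passed the filter and 2 calls were made in the 5 lines together. ARC, the capsid-forming immediate-early gene of neurons, rose in PEER from 2 to 34 reads (log2 3.91, SE 1.02, edgeR adjusted p = 0.0299). ARC had at most 3 reads in any DMSO library, so it too passed the filter through treated libraries. Without the mixed libraries its edgeR adjusted p was 0.0507, and the call was also lost with DESeq2, with the replicate block and without any 1 of decitabine libraries 2 and 3 or DMSO libraries 1 and 2. PEG10, an imprinted gag-pol-like gene, rose in MOLT-16 from 6 to 69 reads (log2 3.85, SE 0.63, edgeR adjusted p = 0.00166). Among 18 cancer-testis antigens of the same X-chromosome band, 2 passed the filter, CTAG2 and MAGEA4. With DMSO all 18 together reached at most 0.413 CPM in a PEER library, 0 CPM in MOLT-16 and 0.216 CPM in PER-117. CTAG2 and MAGEA4 thus passed the filter through treated libraries, which made a call likely. Both were called higher in PEER, MOLT-16 and PER-117, the lines with the highest PNMA5. MAGEA4 was also called in Loucy, and neither was called in TALL-1, where all 11 CTAG2 reads with DMSO lay in the mixed library. With the replicate block MAGEA4 lost its call in MOLT-16 and in Loucy. Each of these comparisons uses the same DMSO libraries as the PNMA values.

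The genes around the X-linked PNMA genes were examined to see how far the pattern reached. Within 500 kb there were 31 other protein-coding genes, of which 15 passed the filter, and 2 were called higher in PEER, 2 in TALL-1, 1 in MOLT-16, 4 in Loucy and 3 in PER-117. One, CCNQ, was called lower, in PER-117, a call that was lost with no low-count filter (edgeR adjusted p = 0.164) and without decitabine library 1 or 2 or DMSO library 2. The median log2 difference of the 15 lay between 0.01 and 0.30. BGN, which encodes the matrix proteoglycan biglycan and starts 93519 bases from PNMA6E, was called higher in PEER, MOLT-16, Loucy and PER-117, but stayed at or below 3.75 CPM on average. Its mean with DMSO was at most 0.359 CPM, so it passed the filter through treated libraries.

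DUSP9, a phosphatase of MAP kinases 241072 bases from PNMA6E, rose on average from 3.82 to 18.3 CPM in PEER (log2 2.27, edgeR adjusted p = 0.00202), from 0.832 to 9.14 CPM in Loucy (log2 3.41, edgeR adjusted p = 2.85e-06) and from 0.576 to 13.4 CPM in PER-117 (log2 4.50, edgeR adjusted p = 4.08e-07). ZNF185, the tested gene nearest to PNMA5 at 15344 bases, was called higher in TALL-1 (log2 2.10) and Loucy (log2 2.48), which were the lines with the lowest PNMA5 under decitabine. The TALL-1 call of ZNF185 was lost without decitabine library 1 or without DMSO library 2 or 3. ATP2B3, a neuronal calcium pump, was called higher in Loucy and PER-117 from at most 0.0373 CPM. The X-linked PNMA genes and their called neighbours were thus interspersed with tested genes that were not called.

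**Figure D5:**
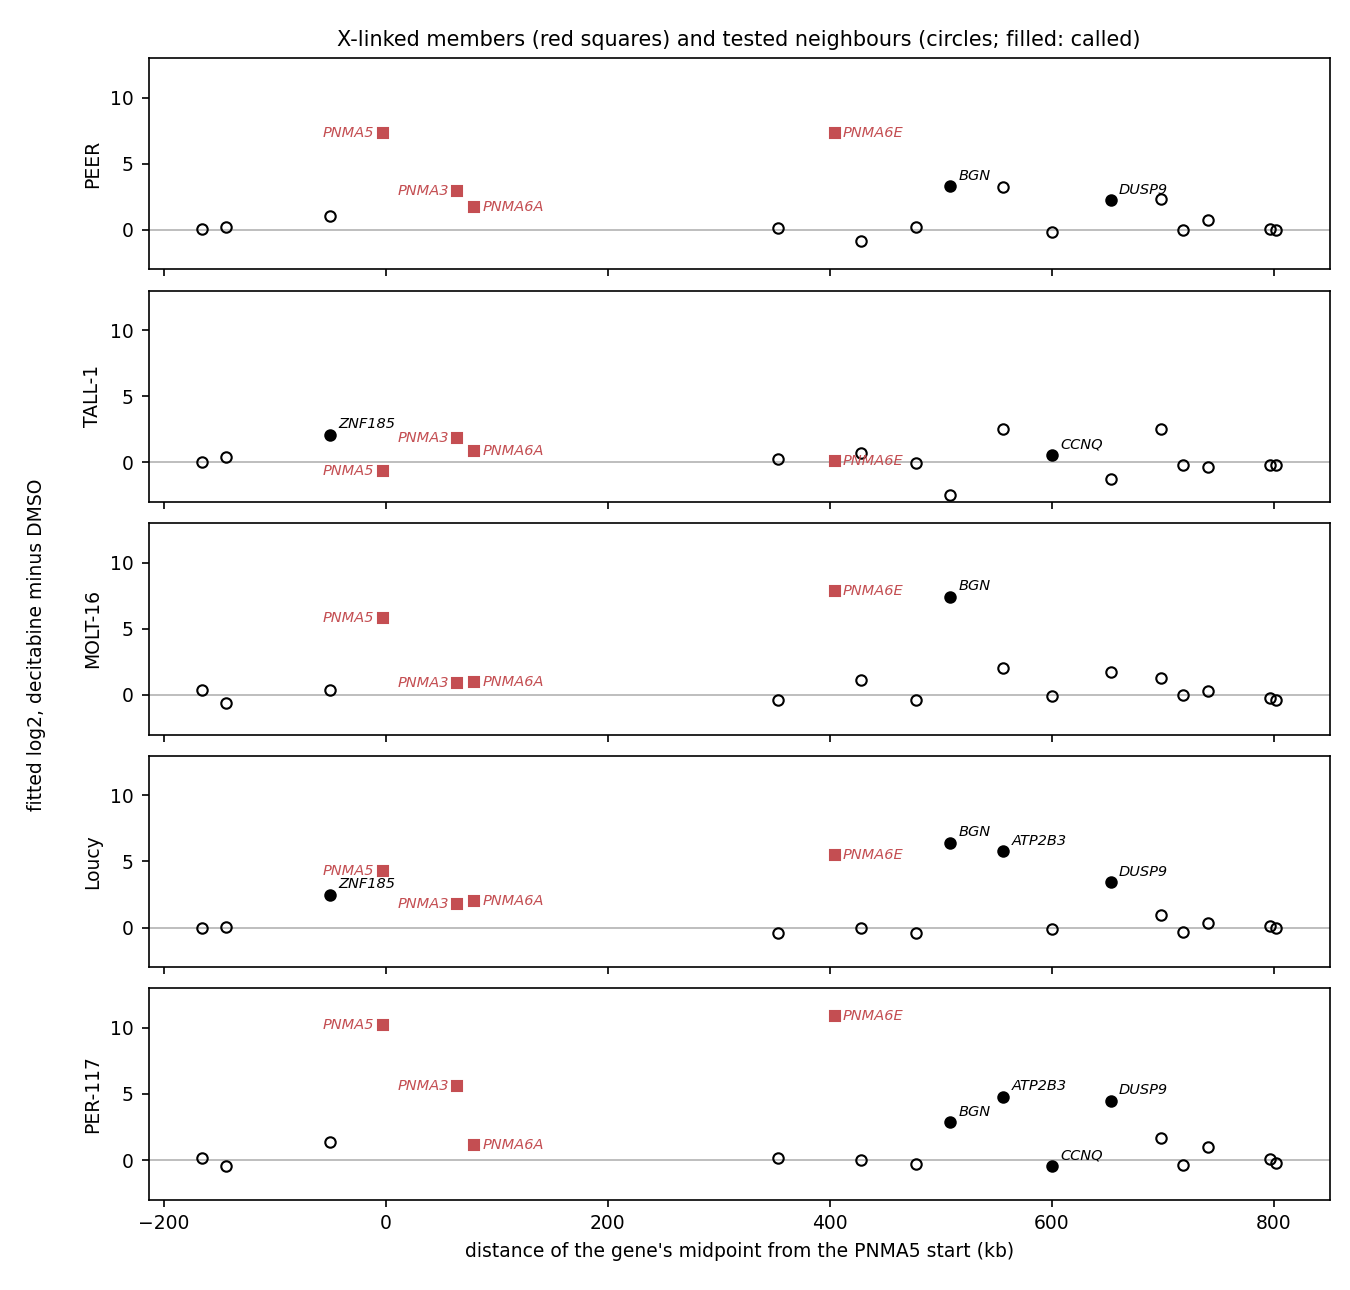
Fitted log2 difference, decitabine minus DMSO, for the 4 X-linked PNMA genes (red squares) and 15 tested neighbours (circles, filled where called), by distance in kb of the gene's midpoint from the PNMA5 start, with 1 panel per line. In PER-117 PNMA5 (10.21) and PNMA6E (10.91) lie above all 15 neighbours, and in TALL-1 they lie near 0.

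The enzymes that write and maintain DNA methylation were called in some lines. DNMT1, the maintenance methyltransferase, fell in TALL-1 from 877 ± 163 to 335 ± 62.9 CPM (log2 -1.39, edgeR adjusted p = 0.00295), and its partner UHRF1 from 81.2 ± 10.1 to 32.6 ± 3.19 CPM (log2 -1.31, edgeR adjusted p = 0.00270). In TALL-1 PNMA5 and PNMA6E with decitabine were far below their levels in PEER, MOLT-16 and PER-117. Their means were lower still in Loucy, where neither DNMT1 nor UHRF1 was called. A link between these enzymes and the PNMA levels was not tested. DNMT3B, a de novo methyltransferase, rose in TALL-1 (log2 0.85, edgeR adjusted p = 0.00504) and fell in Loucy (log2 -1.06, edgeR adjusted p = 0.000124). DNMT3A rose in PER-117 (log2 0.45, edgeR adjusted p = 0.0314), a call that was lost without any 1 of the 6 libraries.

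The reads could be told apart between most of the relatives. In the last 500 bases of the annotated transcripts, no stretch of 50 bases of PNMA1, PNMA2, PNMA5 or PNMA6A was found in an annotated transcript of another gene. Of the ending of the pseudogene PNMA6B, in turn, 100% of the stretches were found in PNMA6A, so reads from there could not be told apart between the pair. In 2 PNMA3 transcripts 6.4% of such stretches, and in 1 PNMA6E transcript 5.5%, were shared with PNMA6F. On the strand opposite to the gene, PNMA1, PNMA3, PNMA5, PNMA6A and PNMA6E had 0 reads in all 30 libraries.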

How the data were processed

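The study measured RNA in 30 libraries with QuantSeq 3′ mRNA-Seq FWD, a kit that reads transcript ends on the RNA strand. The deposited values are whole-number read counts per gene. Per the submitters' processing notes, STAR 2.4.2a, the build GRCh38 (hg38) and DESeq2 were used. The annotation release used for counting was not given in the sources used here, and 56996 of 60554 identifiers matched GENCODE 29. The gene-strand column was used (12.8 to 15.2 times the opposite strand).

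Groups follow the sample titles. For PEER DMSO the titles and file names swap the numbers 2 and 3, and titles were followed. No replicates agreed within sampling noise (lowest chi-square per degree of freedom 2.13). Unmapped, multimapping, no-feature and ambiguous reads stayed out of library sizes.

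The members and gene lists were chosen with earlier results of these data known. Named genes are the 6 members, list genes that were called or reached 5 CPM, and the 3 protein-coding genes most correlated with each member. edgeR 4.0.16 (R 4.3.3) fitted 10 group means with TMM scaling, filterByExpr (minimum count 10), the quasi-likelihood F test and 20 residual degrees of freedom. The SE is the log2 difference divided by the root of F. The script was tested on simulated data. CPM correlations used a prior count of 2. Intervals are exact (95%) and cover counting error only, because no molecular identifiers were used and PCR copies are counted as separate reads. One list of markers of another cell type is not reported here. Alternatives were DESeq2 1.42.0, RLE scaling, no filter, separate fits, a replicate block, unstranded counts, and leaving out libraries.

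Deviations of same-numbered libraries from their group means correlated in every pair of MOLT-16 (0.40, 0.43 and 0.30) and PER-117 (0.54, 0.58 and 0.69). In PEER they did in 2 pairs of 3 (0.51, 0.32 and -0.51), and in TALL-1 and Loucy at least 2 pairs lay below 0.1.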

Additional observations from a re-analysis of the deposited data

Results flagged for a closer look

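The decitabine response of 4 genes near the X-linked PNMA genes differed between the 5 lines in a test with 4 degrees of freedom, which 2049 of 15081 genes (13.6%) passed. They were NSDHL (edgeR adjusted p = 0.0226), BGN (edgeR adjusted p = 0.0340), CCNQ (edgeR adjusted p = 0.0112) and DUSP9 (edgeR adjusted p = 0.00494). NSDHL, a cholesterol synthesis enzyme, had log2 differences from -0.61 in MOLT-16 to 0.42 in TALL-1, with no call in any line. CCNQ, a cyclin, was higher in TALL-1 (log2 0.55) and lower in PER-117 (log2 -0.46), and with no low-count filter neither call was made (edgeR adjusted p = 0.119 and 0.164). The TALL-1 call was also lost without decitabine library 1 or DMSO library 2, and the PER-117 call without decitabine library 1 or 2 or DMSO library 2. DUSP9 ran from -1.22 in TALL-1 to 4.50 in PER-117, and BGN from -2.43 in TALL-1 to 7.43 in MOLT-16. Neither was called in TALL-1. The BGN value there is at the edge of detection, with a mean of 0.0597 CPM with DMSO and 0 CPM with decitabine, and shows no fall. Without the 3 mixed libraries, a check chosen after seeing the data, the adjusted p was 0.0228 for NSDHL, 0.00344 for CCNQ and 0.0470 for DUSP9, and BGN no longer passed (0.0985). In the same fit ZNF185 (0.00833) and ZNF275 (0.0408) passed, which with all libraries they had not (0.142 and 0.139). That fit called 27.8% of the genes tested.

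Reads opposite to PNMA2, which no comparison used, were more frequent with decitabine in Loucy, with 2, 5 and 12 reads (19 in all) against 0, 0 and 1 with DMSO, a ratio of 20.4 (95% counting interval 3.24 to 846). PER-117 had 10 and 3 reads, a ratio of 2.65 (0.683 to 15.01). PNMA2 overlaps BNIP3L and DPYSL2, which lie on the opposite strand, and the gene that these reads come from was not tested.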

How the results depend on the processing

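Libraries of 3 per group limit what could be called, and values below about 1 CPM rest on single reads in the smaller libraries. The 5 counts of genes called higher were 534 in PEER, 1017 in TALL-1, 331 in MOLT-16, 1595 in Loucy and 1308 in PER-117. In MOLT-16 the count was 514 with DESeq2, 652 with no low-count filter, 58 in a separate fit and 1539 without the 3 mixed libraries, and in PEER it was 276 in a separate fit. Leaving out 1 library at a time gave 335 to 495 in PEER, 731 to 831 in TALL-1, 150 to 1139 in MOLT-16 (the highest without the mixed DMSO library 3), 1205 to 1385 in Loucy and 906 to 1132 in PER-117. Of the 6 PNMA genes this left 2 to 3 called in PEER, 0 to 1 in TALL-1, 2 to 3 in MOLT-16, 0 to 2 in Loucy and 3 in PER-117. A separate fit called 1 of the 3 that passed its filter in Loucy, and the fit without the mixed libraries called 1 in TALL-1.

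Summed over the 5 lines, the separate fits called 1 other PNMA family gene higher (3 with all libraries), 1 other gag-derived gene (2), 4 cancer-testis antigens (7) and 8 methylation enzymes in either direction (5). Other gag-derived genes numbered 4 with no filter, 1 with the replicate block and 5 without the mixed libraries. Leaving out single libraries gave 2 to 3, 1 to 4, 6 to 7, 4 to 7 and, for 12 neighbour calls, 10 to 15. In the separate fits CCDC8 in PEER and Loucy, ARC in PEER and MAGEA4 in PEER, MOLT-16 and Loucy fell below the filter. They were thus not tested there. The cause of the other shifts was not tested.

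With the replicate block the counts of genes called higher were 499, 1037, 377, 1670 and 1339, and 2, 0, 2, 2 and 3 of the 6 PNMA genes were called, with PNMA3 lost in PEER. PNMA5 in TALL-1 had a log2 difference of 0.53 in that fit. None of the called results reversed its direction.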
